A study of Drosophila melanogaster with 3 samples.

Results

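The genes kirre, rst, hbs and sns of Drosophila melanogaster encode immunoglobulin-domain adhesion proteins, and the peaks of a tagged CG8119 protein in and around them are described here. The 4 genes were chosen by the readout itself: kirre (kin of irre) had stood out for its number of peaks, and the other 3 were added as its relatives. Peaks were taken where the summit lay in the body of one of the genes or within 5 kb of it. These were 32 of the 7279 peaks of replicate 1, 29 of the 6769 of replicate 2 and 19 of the 4608 of replicate 3. Summits closer than 150 bp were joined, giving 38 loci at the 4 genes of 9014 in the genome. A locus with a summit in every replicate is called shared, and 18 of the 38 were shared (47.4%), beside 41.6% of all loci. All 18 lie inside kirre. Because the count chose the gene, nothing is read from this share.

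Kirre and Rst, together with Hbs and Sns, span the cell membrane and bind each other across cell contacts. In the embryo, founder myoblasts carry Kirre and Rst, and fusion-competent myoblasts carry Sns and Hbs; their contact precedes the fusion that builds multinucleate muscle fibres. In the pupal eye the same proteins sort the cells between ommatidia, and in nephrocytes, the filtering cells of the fly, Kirre and Sns build the slit diaphragm, as nephrin and NEPH proteins do in vertebrates. Axon guidance in the optic lobe also uses these proteins. CG8119 is known by its gene number only in the labels used here, and no role is given to it.

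The material was whole prepupae, 1 day old, of the transgenic strain CG8119-GFP, in which CG8119 is made as a fusion with enhanced green fluorescent protein; sex was not recorded. Chromatin was sheared by sonication and pulled down with an antibody against the fluorescent tag, and the 3 biological replicates form 1 group. No second genotype, stage or treatment was analysed here, and neither was a control pull-down, so the values are descriptions with no test between conditions. Whole animals were used, so a peak does not tell the tissue in which the protein sat, and fewer cells with the protein cannot be told apart from less protein per cell. Sequencing depth is unknown because the lists hold no read counts, and replicate 3 has the shortest list. A peak marks a place of concentrated fragments; whether the gene beside it responds to the protein was not measured.

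The DNA at the peaks is shown first, because the shared loci as a set were richer in A and T at the centre than 500 bp away. This did not hold equally for each locus. Each run covers the median summit and 75 bases to each side on build dm6, plus strand, read 5′ to 3′ from the RefSeq genome, with every unbroken run of 6 or more A or T bases in capitals. The 6 shared loci of kirre with the strongest signal are on chromosome X at chrX:2744168-2744318 for kirre-3, chrX:2786697-2786847 for kirre-4, chrX:2787355-2787505 for kirre-5, chrX:3016595-3016745 for kirre-17, chrX:3044939-3045089 for kirre-24 and chrX:3046120-3046270 for kirre-26. Loci are numbered from left to right along the gene.
kirre-3: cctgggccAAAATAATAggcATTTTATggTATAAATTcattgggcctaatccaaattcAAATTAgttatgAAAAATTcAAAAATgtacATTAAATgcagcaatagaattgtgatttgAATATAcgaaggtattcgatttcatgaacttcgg
kirre-4: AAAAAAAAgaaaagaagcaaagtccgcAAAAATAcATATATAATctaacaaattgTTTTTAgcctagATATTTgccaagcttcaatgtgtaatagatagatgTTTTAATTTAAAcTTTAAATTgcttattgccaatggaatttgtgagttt
kirre-5: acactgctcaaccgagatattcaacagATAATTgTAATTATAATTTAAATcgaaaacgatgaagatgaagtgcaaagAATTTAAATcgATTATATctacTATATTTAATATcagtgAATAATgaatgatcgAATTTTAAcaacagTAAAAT
kirre-17: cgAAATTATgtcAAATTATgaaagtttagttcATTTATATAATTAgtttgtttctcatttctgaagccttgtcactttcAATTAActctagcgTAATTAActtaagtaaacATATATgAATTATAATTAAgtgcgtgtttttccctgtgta
kirre-24: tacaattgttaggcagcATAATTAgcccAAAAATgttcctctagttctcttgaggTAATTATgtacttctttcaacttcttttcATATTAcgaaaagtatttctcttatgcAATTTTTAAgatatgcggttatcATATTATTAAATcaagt
kirre-26: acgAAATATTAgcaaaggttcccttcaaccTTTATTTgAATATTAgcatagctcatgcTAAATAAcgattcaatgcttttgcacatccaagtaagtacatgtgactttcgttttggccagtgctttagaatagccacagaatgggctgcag

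The shared loci within 5 kb of rst are shown for comparison with the stronger ones. They lie at chrX:2947777-2947927 for kirre-9 and chrX:2978171-2978321 for kirre-11, also on the plus strand with the same capitals.
kirre-9: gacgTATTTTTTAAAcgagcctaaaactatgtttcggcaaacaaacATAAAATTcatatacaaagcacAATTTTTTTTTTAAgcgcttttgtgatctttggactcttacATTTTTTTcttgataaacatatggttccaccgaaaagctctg
kirre-11: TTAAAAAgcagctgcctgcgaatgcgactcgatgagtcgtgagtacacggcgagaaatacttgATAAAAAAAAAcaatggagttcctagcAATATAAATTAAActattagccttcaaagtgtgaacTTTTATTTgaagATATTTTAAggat

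G and C bases made up 25.2% of the printed run of kirre-5, the strongest locus, 28.5% of kirre-24, the next strongest, and 38.4% of kirre-26. In kirre-9 and kirre-11 they made up 31.1% and 34.4%. Capitals covered from 19.2% of the bases in kirre-26 to 46.4% in kirre-5. In kirre-26 all capitals lie left of the centre. All 8 runs were thus richer in A and T than in G and C, including the weaker loci near rst. The windows 500 bp from the shared loci, with a median of 40.5% G and C, were so as well.

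Over the 18 shared loci of kirre, the DNA within 100 bp of the centre held a median of 32.3% G and C, with a range of 20.4% to 39.3%. The 36 windows 500 bp to either side had a median of 40.5%, with a range of 23.9% to 56.2%. In bins of 40 bp the G and C content fell to 25% at the centre and stood at 51.0% and 50.1% at 200 bp to the left and right. The 3728 shared loci elsewhere in the genome had 29.3% at the centre and 45.9% at 200 bp on both sides. At 480 bp and beyond, the mean was 41.2% at kirre and 41.6% elsewhere. The dip at the centre was thus present in kirre and in the rest of the genome, and with 18 loci in kirre the curve is uneven. The 20 loci of the 4 genes seen in 1 or 2 replicates had a median of 39.3% G and C within 100 bp of the centre and a range of 29.9% to 57.2%, and 10 of them were above every shared locus.

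**Figure D1:**
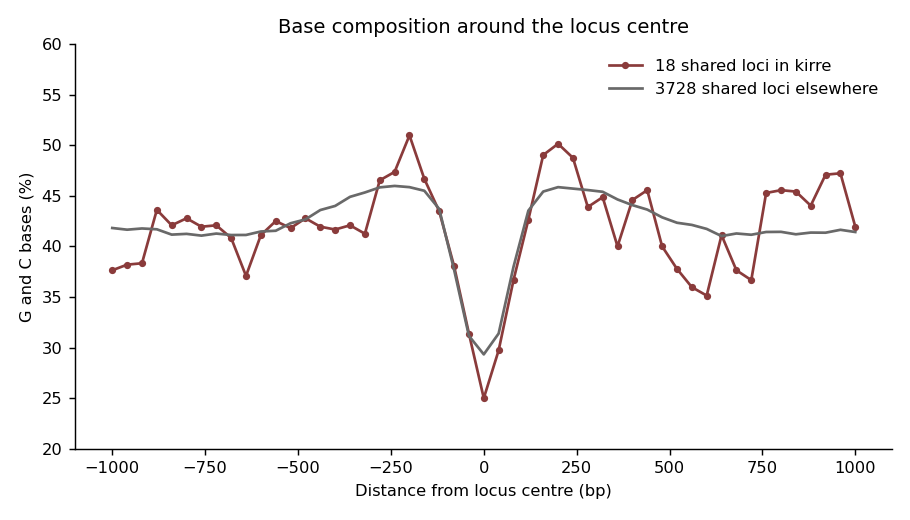
The percentage of G and C bases in bins of 40 bp is plotted against the distance in bp from the locus centre, for the 18 shared loci of kirre (red, with points) and the 3728 shared loci elsewhere (grey). Both curves have their low at the centre, 25% and 29.3%, between shoulders at about 200 bp.

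Short words tell the same composition. The 5 words of 7 bases that were most concentrated at shared loci outside the 4 genes are all made of A and T, and both strands were searched; they overlap each other, so their counts are not separate facts. The word AAAAATA was within 100 bp of the centre at 9 of the 18 shared loci of kirre (50%) and at 34.3% of shared loci elsewhere. It was at 19.2% of the 19275 annotated starts of protein-coding genes, the starts meant in all word counts. The word AAAAAAT was at 8 loci (44.4%), beside 34.7% elsewhere and 18.4% of starts. AAAATAT was at 7 loci, beside 30.7% elsewhere; AAATATA was at 6 loci, beside 26.8% elsewhere; and TTTAAAA was at 4 loci, beside 25.5% elsewhere. At least 1 of the 5 words was present at 15 of the 18 loci (83.3%) and at 70.2% of shared loci elsewhere. The loci with none of them were kirre-3, kirre-24 and kirre-26, all among the 6 of strongest signal printed above. In the windows 500 bp away from the loci of kirre, each of the 5 words was found in 5.56% to 19.4% of 36 windows. The longest run of A and T had a median of 14.5 bases at the 18 loci, 11.0 in their flanking windows and 13.0 at shared loci elsewhere.

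Of 9 words bound by known fly or animal factors or common in fly promoters, TTAATTA, a homeodomain-type word, was at 4 of the 18 loci (22.2%), beside 12.2% elsewhere and 6.10% of starts. CANNTG, the E-box bound by basic helix-loop-helix proteins such as Twist, was at 11 loci (61.1%), beside 56.6% elsewhere and 63.9% of starts. GAGAG, bound by GAGA factor, was at 2 loci (11.1%), beside 23.2% elsewhere. The word CACACA was at 1 locus (5.56%), beside 14.7% elsewhere and 16.1% of starts. The other 5 were in none of the 18 windows and at 0.644% to 9.04% of shared loci elsewhere. They were CAGGTA as bound by Zelda, TATCGATA as bound by DREF, AGGTCA as bound by nuclear receptors, GATAAG as bound by GATA factors, and the palindromic E-box CACGTG. In the 36 windows 500 bp away from the loci of kirre, TTAATTA was in 11.1%, CANNTG in 72.2%, and GAGAG and CACACA in 13.9% each. TTAATTA is itself made of A and T, and the part of base composition in its share was not tested. A match is a string of letters in a window and shows no factor at work.

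The kirre gene occupies 394 kb of chromosome X, chrX:2740384-3134532 on the plus strand, with 7 transcripts and 6 annotated starts. In this body and its flanks were 34 loci, of which 18 were shared (52.9%), 4 had summits in 2 replicates and 12 in 1. Replicates 1, 2 and 3 placed 29, 26 and 19 peaks there. Replicate 3 added 1 peak that was not at a shared locus. All 34 centres fell in the annotated body, none in the 5 kb beyond either end. By single summits, 28 of the 29 peaks of replicate 1 were in the body.

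The shared loci were spread unevenly. Along kirre-RF, the transcript of longest span, intron 5 (118 kb) held 21 loci, 12 of them shared, which is 66.7% of the shared loci in 29.9% of the body. Intron 2 (122 kb) held 7 loci and 3 shared, and intron 3 (132 kb) held 5 and 3. Intron 6 (16.0 kb) held none, and exon 11, the last, held the centre of 1 locus, kirre-34, which is not shared. In shared loci per 10 kb, intron 5 had 1.02, intron 2 had 0.247 and intron 3 had 0.227. The replicates gave intron 5 densities of 1.61, 1.36 and 1.02 peaks per 10 kb, a mean of 1.33 ± 0.298 (SD, n = 3). On kirre-RB, the transcript with the most exons, the richest intron is number 6 (70.6 kb), with 10 shared loci.

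**Figure D2:**
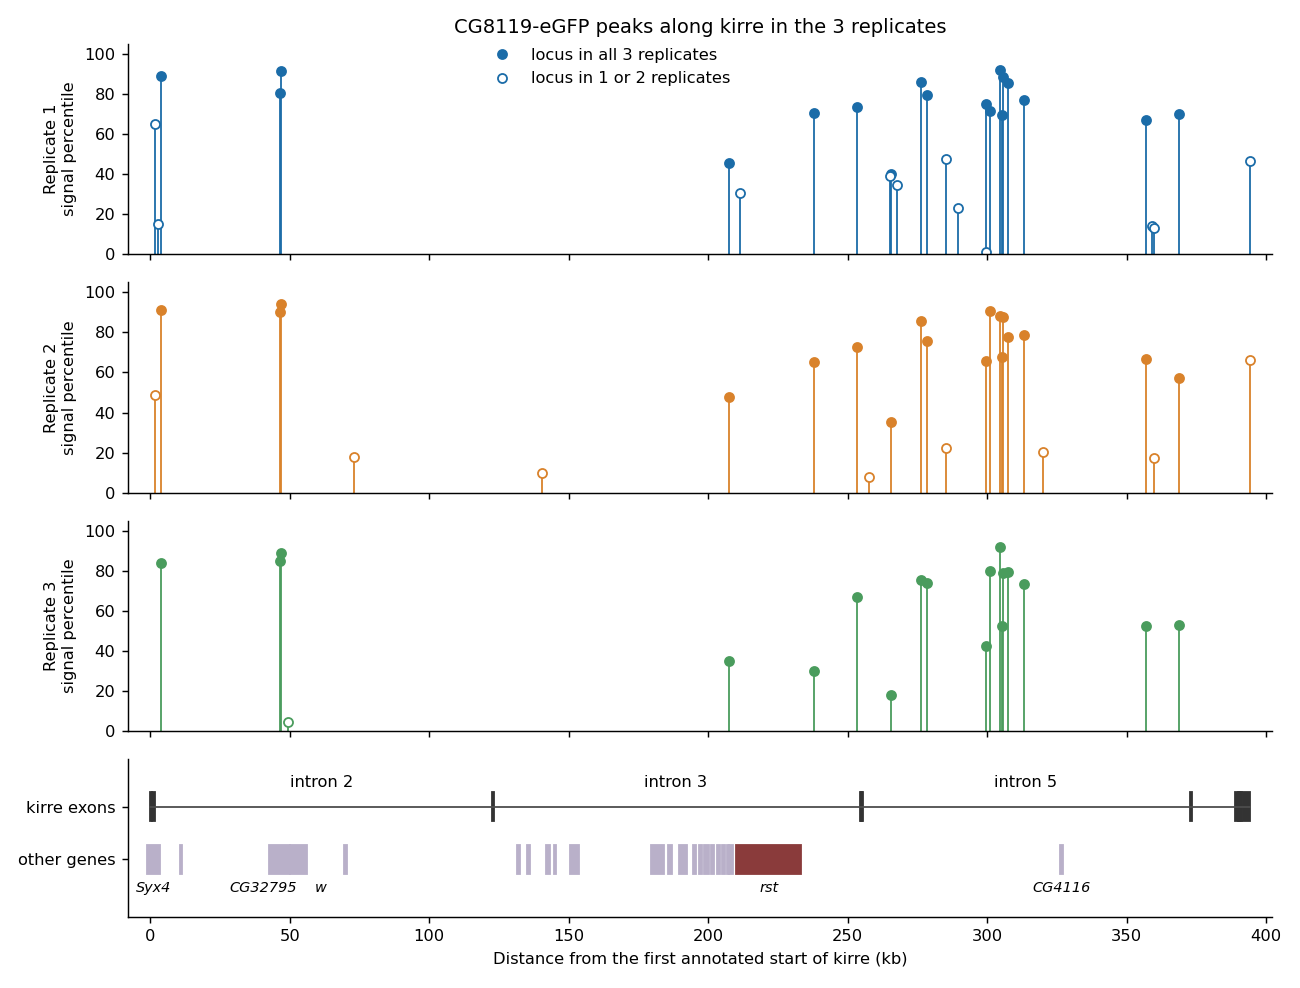
Each stem is a peak of 1 replicate, placed by its distance in kb from the first annotated start of kirre, with its height the percentile of its signal in that replicate's list (100 = strongest); filled points are loci of all 3 replicates and open points loci of 1 or 2. The lower strip shows the exons of kirre-RF and the other genes in the same stretch, with rst in red. The 12 shared loci of intron 5 stand at the right, the body of rst has 1 open point, and only open points fall between CG32795 and the genes left of rst.

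The densest stretch lies in intron 5. The centres of kirre-21, kirre-23, kirre-24, kirre-25, kirre-26 and kirre-27 are 6 shared loci within 7.99 kb, chrX:3039924-3047913. This stretch was picked as the densest of a gene that was itself chosen for its peaks, so its density is a description. Over the genome, 33 of 3746 stretches of 10 kb (0.881%), each begun at a shared locus, held at least as many. The largest number was 7 and the median 1, and the stretches overlap each other. The 6 loci lie 50.9 to 58.9 kb downstream of one annotated start of kirre and 51.6 kb or more upstream of the next. In contrast, the largest gap between neighbouring shared loci was 160 kb, over the right part of intron 2 and the left part of intron 3. The median gap was 10.7 kb, and the shortest was 579 bp, between kirre-25 and kirre-26.

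Signal in each replicate followed the same order in broad terms. At kirre-5 the authors' signal was 295, 351 and 247 in replicates 1, 2 and 3, ranks 629, 383 and 505 in lists of 7279, 6769 and 4608 peaks. At kirre-24 it was 311, 239 and 286, ranks 571, 813 and 368. The best rank of kirre in each replicate was at one or the other of these loci. At kirre-3 the signal was 258, 277 and 198, ranks 794, 600 and 749.

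At kirre-4 the signal was 184, 261 and 205, ranks 1413, 674 and 707. At kirre-26 it was 250, 235 and 170, ranks 847, 839 and 968, and at kirre-17 it was 223, 215 and 156, ranks 1019, 970 and 1126. At the weakest shared locus, kirre-15, the signal was 82.4, 76.7 and 64.3, ranks 4347, 4389 and 3779. The scale of the signal is not stated, so only ranks within a list are compared.

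As percentiles of each list, with 100 the strongest, the 18 shared loci averaged from 31.2 at kirre-15 to 91.6 at kirre-5, with a median of 76.4. Only kirre-5 and kirre-24 were on average in the top 10%. The 3728 shared loci elsewhere had a median of 66.5, with quartiles of 47.5 and 83.3, and 11 of the 18 loci of kirre were above that median. By replicate, the median percentile over the 18 loci was 76.2, 76.7 and 73.6, and over the shared loci elsewhere 73.3, 71.2 and 58.7. At 14 of the 18 loci the lowest percentile was that of replicate 3. The widest spread was at kirre-11, with percentiles of 70.4, 65.5 and 29.7.

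Across the 18 loci, Spearman's rho between the signals of replicates 1 and 2 was 0.822, of 1 and 3 0.853, and of 2 and 3 0.930; elsewhere the values were 0.880, 0.873 and 0.878 over 3728 loci. The loci share their libraries, and the values are given as a description. The summits of the 3 replicates lay 2 to 54 bp apart at the loci of kirre, with a median of 29.5 bp, and a median of 32.0 bp elsewhere.

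**Figure D3:**
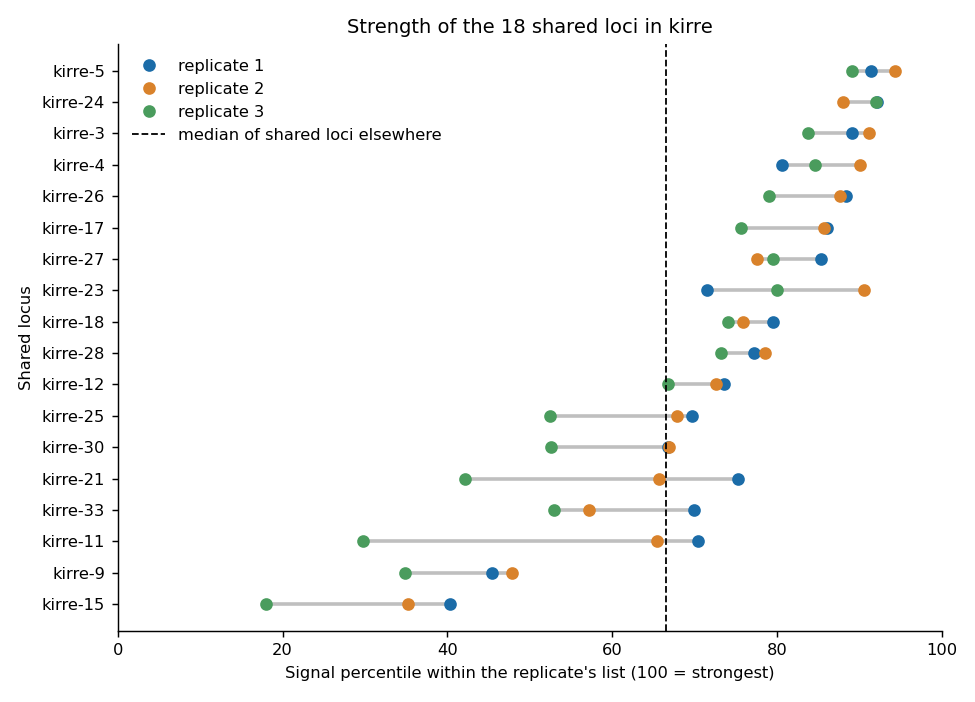
Each row is 1 of the 18 shared loci of kirre, ordered by mean percentile; the points are the percentile of its signal in the 3 replicates' lists and the grey bar spans them. The dashed line marks 66.5, the median of the 3728 shared loci elsewhere; 11 loci have a mean above it, and replicate 3 is the lowest point at 14.

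Loci seen in 1 or 2 replicates were weaker. The 16 of kirre averaged percentiles from 0.996 to 56.9, with a median of 19.1, and all 16 were below the median of the shared loci elsewhere. The weakest, kirre-22, is a peak of replicate 1 alone with a signal of 7.69 at rank 7207, 203 bp from the summit of kirre-21. Many of these loci also had a peak below threshold in the replicate that lacked them. Over the 4 genes, a replicate's thresholded list lacked a locus 34 times, and in 28 of these (82.4%) its longer ranked list held a peak within 150 bp; over all loci of the genome this was 74.6% of 8617. Of the 38 loci, 33 (86.8%) were in the conservative list of the whole series, beside 82.0% of all loci. Among them were all 18 shared loci, beside 99.5% of all shared loci.

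Most shared loci of kirre were far from any transcript start. Their median distance to the nearest annotated start of any gene was 15456 bp, against 1422 bp for shared loci elsewhere. Of the 18, 10 were over 10 kb from any start. How many shared loci elsewhere lay that far from a start was not counted. The loci elsewhere were not limited to genes as long as kirre, so the distances are not shown to be particular to it. Within 500 bp of a start were 2 of the 18 (11.1%), against 32.1% elsewhere, and neither start belongs to kirre. The first, kirre-3, was 167 bp upstream of a start of Syx4, a syntaxin of membrane fusion, which overlaps the left end of kirre on the other strand. The second, kirre-9, was 182 bp upstream of CG3603.

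At the starts of kirre itself, kirre-31 was a peak of replicate 1 alone, 156 bp upstream of an internal start, with a signal of 58.2 at rank 6265. Next to it, kirre-32 had summits in replicates 1 and 2, 493 bp downstream of the nearer start, with signals of 57.6 and 61.2 at ranks 6309 and 5595. Neither was shared. At the right end, kirre-34 was centred on the last base of kirre, 338 bp upstream of the start of N, which encodes the receptor Notch. This centre is the median of the summits at chrX:3134572 in replicate 1, beyond the end of kirre, and chrX:3134491 in replicate 2, inside it. The locus had signals of 89.2 and 127 in replicates 1 and 2, ranks 3900 and 2288, and no thresholded peak in replicate 3.

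Because kirre is so long, it contains or overlaps 23 other annotated genes, 22 of them protein-coding, and a locus in its body need not belong to it. Neither in the body nor at the promoter was there a shared locus for 20 of the 23. At a start, 2 of the 23 had one, beside 9.06% of all protein-coding genes. The share with none in either place was not counted over all genes. The nested gene CG32795 held kirre-4 and kirre-5 in its body, Syx4 and CG3603 had the promoter loci named above, and the remaining 14 shared loci lay outside the bodies and promoters of these genes, among them kirre-11, 4412 bp upstream of rst. The nested gene w (white), which encodes an eye pigment transporter, had no locus. The nearest start was that of CG4116, a nested gene under 1 kb long, at 7 of the 18 loci, and one of kirre at 6.

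Counted over its body, kirre had 0.710, 0.660 and 0.482 peaks per 10 kb in replicates 1, 2 and 3, a mean of 0.617 ± 0.120 (SD, n = 3). Chromosome X had 0.603, 0.562 and 0.400, a mean of 0.522 ± 0.107, and all arms together, chromosome Y included, had 0.452 ± 0.103. Within each replicate kirre stood above X, by 0.107, 0.0981 and 0.0819 peaks per 10 kb, a mean difference of 0.0957 ± 0.0128 (SD, n = 3). The SDs of the densities themselves mostly follow the length of the lists, which kirre and X share. Since kirre was chosen for its peaks, no test is made of this difference. In shared loci per 10 kb, kirre had 0.457, chromosome X 0.327 and all arms 0.272.

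**Figure D4:**
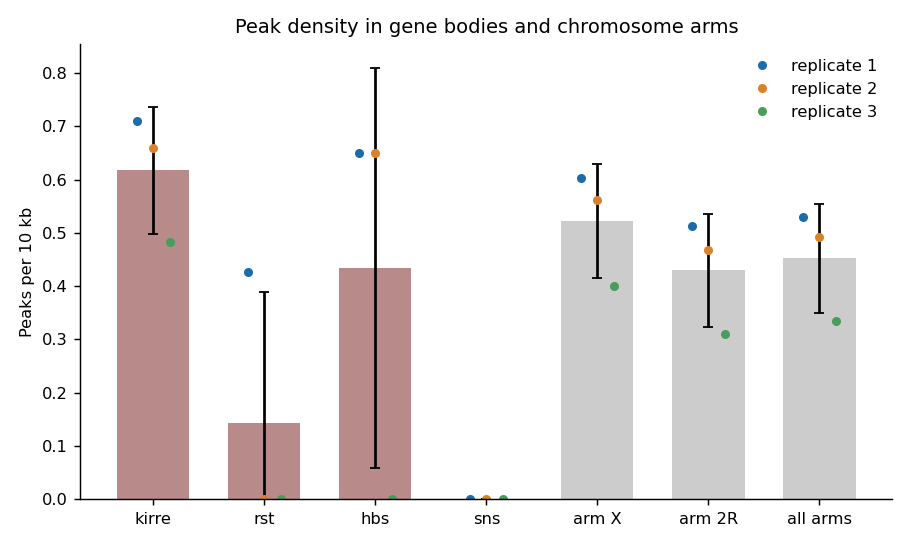
Bars are the mean number of peaks per 10 kb over the 3 replicates, with SD, for the bodies of the 4 genes (red) and for chromosome arms (grey); points are the replicates. The bar of kirre stands at 0.617 and that of arm X at 0.522, the body of sns has no peak in any replicate, and that of rst has 1 peak in replicate 1 alone.

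With kirre chosen for its number of peaks, its 18 shared loci, the highest count in a protein-coding gene body, restate that choice. Next came sbb (scribbler, a nuclear protein) with 17, Snoo (a Ski-family corepressor) with 15, shn (schnurri, a zinc finger protein of Dpp signalling) with 14 and CG1677 with 13. Those 4 genes are 58.3 to 124.7 kb long, and their densities were 2.15, 1.61, 2.40 and 1.04 shared loci per 10 kb against 0.457 in kirre. Of the 313 protein-coding genes of at least 50 kb, 59.1% held at least 1 shared locus, 128 held none, and the median density was 0.153. The 128 include genes of chromosome Y and other genes, some longer than kirre, with no locus of any replicate. Whether peaks could be called there was not examined, and the ranks of kirre are set against these genes too. Tlk, a protein kinase gene, tied with CG1677 at 13. By density kirre was number 78 of the 313.

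The 5 long genes nearest to kirre in shared loci per 10 kb were hth (0.455), CG42238 (0.462), bab1 (0.464), ush (0.466) and CG42747 (0.469). Intron 5, the richest of kirre, was set beside other introns after its values were seen. Among 143 introns of at least 50 kb it was number 12 by density and number 5 by count, and 62 of the 143 held a shared locus. Some of the introns without one lie in the genes that had no locus of any replicate. The introns 2 and 3 of kirre were numbers 45 and 47.

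**Figure D5:**
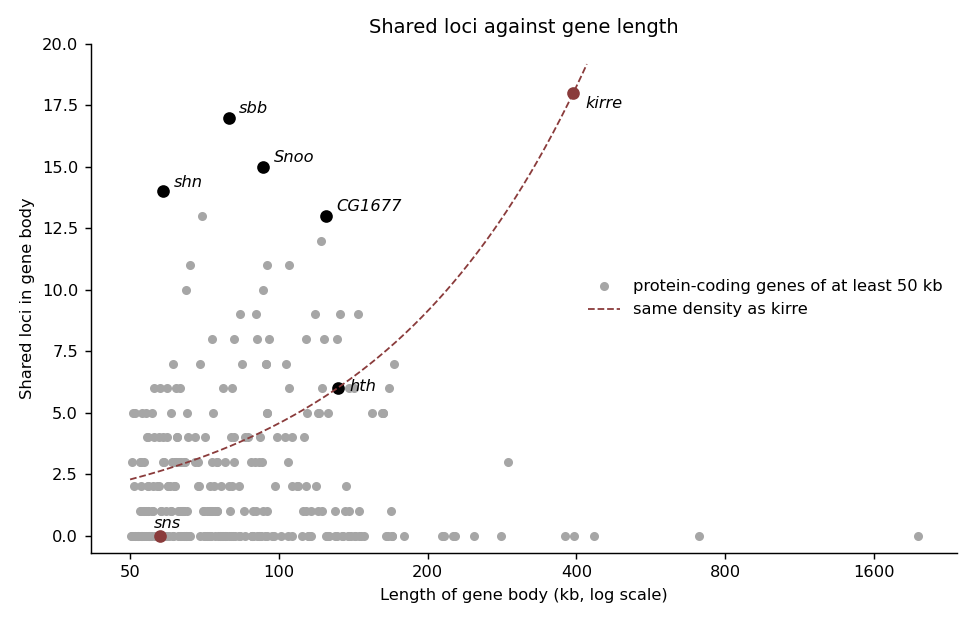
Each point is a protein-coding gene of at least 50 kb, with the length of its body in kb on a log axis and the number of shared loci in it; the dashed curve gives the count at kirre's density of 0.457 per 10 kb. The point of kirre is the highest, at 18, and sbb, Snoo, shn and CG1677 stand above the curve at shorter lengths; sns is at 0.

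The gene rst (roughest), which acts alongside kirre in founder myoblasts, lies wholly inside intron 3 of kirre on the minus strand, chrX:2950399-2973834 (23.4 kb). Its body held 1 locus, kirre-10, a peak of replicate 1 alone with a signal of 72.4 at rank 5068. Both shared loci near it lay outside the body, so the body had no shared locus. Beyond the 3′ end of rst, kirre-9 had signals of 88.0, 92.5 and 78.6 in the 3 replicates, ranks 3973, 3530 and 3002. Upstream of its start, kirre-11 had signals of 138, 124.8 and 73.6, ranks 2153, 2337 and 3238. Their mean percentiles, 42.7 and 55.2, are below the median of shared loci elsewhere. Both also count as loci of kirre. The next locus beyond the 5 kb limit, kirre-12, was 14730 bp outside it.

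The gene hbs (hibris), expressed by fusion-competent myoblasts, lies on chromosome 2R, chr2R:15011396-15042134 on the plus strand (30.7 kb). It held 3 loci, all in intron 1 (24.2 kb), and none was shared. The strongest, hbs-2, had signals of 90.2 and 54.2 in replicates 1 and 2, ranks 3841 and 6139. A peak of replicate 1 alone, hbs-1, ranked 6751, and one of replicate 2 alone, hbs-3, ranked 6531 and overlaps hbs-2. Replicate 3 had no thresholded peak at hbs. Peaks per 10 kb were 0.651, 0.651 and 0, a mean of 0.434 ± 0.376, beside 0.430 ± 0.106 over arm 2R. Within replicates 1 and 2 hbs was above the arm by 0.139 and 0.184, and in replicate 3 it had no peak. The 2 peaks of replicate 2 were those of hbs-2 and hbs-3, which overlap, so its excess rests on counting them separately. With overlapping peaks merged, hbs had 2 loci in place of 3.

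The gene sns (sticks and stones), which encodes the fusion-competent receptor and the fly counterpart of nephrin, lies on the same arm, chr2R:8798489-8856091 on the plus strand (57.6 kb). Its body held no peak in any replicate. Its only locus, sns-1, was centred 15 bp upstream of its start, with signals of 72.0 and 51.5 in replicates 1 and 2, ranks 5102 and 6285. Replicate 3 had no peak there, and none in its ranked list. Within 100 bp of the centre of sns-1, 57.2% of bases were G or C, above the highest value among the shared loci of kirre. It was the only locus at the start of the gene it belongs to among rst, hbs and sns.

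Just inside and outside the 5 kb limit, the values were as follows. The first locus of kirre at the left was kirre-1, 6852 bp inside the limit, at percentile 56.9 in 2 replicates, and the next locus to the left was 31493 bp outside, a shared locus near Ugalt at percentile 99.9. At the right, kirre-34 was at percentile 56.3, and the next locus, in N, was 4236 bp outside at percentile 38.0 in 2 replicates. At hbs the nearest loci outside were 14102 and 6155 bp beyond the limit, and at sns 33873 and 46352 bp.

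Genes that work with these receptors were counted from lists. Of 28 genes of myoblast fusion and founder cell signalling, 19 (67.9%) had a shared locus in the body or within 5 kb, beside 32.8% of all protein-coding genes. At a start, meaning no more than 500 bp away, 5 of the 28 had one (17.9%), beside 9.06% of all protein-coding genes. The strongest were at Mef2, a muscle transcription factor (percentile 98.9), drk, a Grb2-type adaptor (88.4), twi, the mesoderm factor Twist (88.2), if, an integrin alpha subunit (87.8), and dock, an SH2 and SH3 adaptor (86.7). The named loci of Mef2, if and dock lay outside the gene body, 1056, 1008 and 4950 bp away, and may belong to a neighbouring gene. Some of the 19, dock among them, had no shared locus in the body and count through the 5 kb flank alone. The later lists and the 32.8% of all protein-coding genes were counted by the same rule. The annotated body of twi contains another protein-coding gene, which held 5 of its 6 shared loci, so a locus there need not belong to twi. Bodies in this list, that of twi with all its loci included, held 0.693 shared loci per 10 kb, against 0.272 over all protein-coding genes. Their median length was 7.57 kb against 2.16 kb, and the part of length in the share was not tested.

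Of 18 genes of eye cell sorting and the slit diaphragm, 10 (55.6%) had a shared locus in the body or within 5 kb, beside the 32.8% of all protein-coding genes. At a start 4 (22.2%) had one, beside the 9.06%. The strongest were at ed, the adhesion protein Echinoid (96.9), Egfr, the epidermal growth factor receptor (96.4), lz, a Runx factor (95.2), spi, a ligand of that receptor (94.4), and Src64B, a tyrosine kinase (92.0). The loci of ed and lz lay 738 and 2273 bp outside the gene body. The bodies of this list held 0.506 shared loci per 10 kb, against 0.272 over all protein-coding genes. Their median length was 16.3 kb against 2.16 kb, and its part in the share was not tested.

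Among 87 other immunoglobulin-superfamily adhesion genes, 28 (32.2%) had a shared locus in the body or within 5 kb and 6 (6.90%) at a start, beside 32.8% and 9.06% of all protein-coding genes. Their bodies held 0.122 shared loci per 10 kb, and their median length was 36.7 kb. The strongest loci were at DIP-iota, a partner of Dpr proteins (99.99), ImpL2, a secreted binder of insulin-like peptides (99.3), ed (96.9), DIP-alpha (96.4) and bdl, a glial and photoreceptor adhesion protein (91.2). The loci of DIP-iota and bdl lay 4430 and 1245 bp outside the gene body, and neither body held a locus.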

How the data were processed

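Each of the 3 biological replicates has a thresholded and a longer ranked peak list, on dm6 as the deposited README files state. The ranked lists carry an irreproducible discovery rate (IDR) per peak, and the thresholded lists a score scaled from it. A low IDR marks a peak likely to recur between the peak sets compared. Which sets were paired within a replicate is not stated. Which aligner and peak caller made them is not given in the sources used here. The signal the authors deposited per peak has no stated scale and serves for ranks. The scaled score they deposited was 830 or more in the thresholded lists, an IDR of 0.01 or less, and the authors' ranked lists give the −log10 of the global IDR.

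Summits were joined within 150 bp, and a locus belongs to a gene if its centre, the median summit, lies in the body or within 5 kb (Ensembl release 115, without transposable elements). Introns follow the transcript of longest span, and promoter means within 500 bp of a start. The 7-base words were ranked by the share of loci with them within 100 bp of the centre minus the share 500 bp away. The listed symbols Amnless and Dl had no match and were left out. Named genes are the 4 members, the genes overlapping them, the 5 with the most shared loci, the 5 nearest to kirre in density and up to 5 of each list by strongest locus. The joining was tested on simulated loci set much farther apart than the closest loci here, so how it separates close neighbours was not tested. Python 3, pandas and scipy were used. The members and lists were chosen with earlier results of these data known. The comparisons of long introns, 10 kb stretches, runs of A and T, base composition by distance, differences within a replicate and shares in the conservative list were added after the data were seen. With 1 group, p-values were not computed.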

Additional observations from a re-analysis of the deposited data

How the results depend on the processing

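The shared loci of kirre numbered 16 to 18 under every alternative with all 3 replicates, and 18 to 22 with 1 replicate left out; over the 4 genes the ranges were 16 to 18 and 18 to 24. Shared loci per 10 kb of kirre ran from 0.406 to 0.457, and from 0.457 to 0.558 with 1 replicate left out. The richest intron of kirre held 12 shared loci, or 10 on the transcript with the most exons. Of the long genes, 24.6% had more shared loci per 10 kb than kirre, and 28.5% of those of at least 20 kb. Counts of all loci depended on the weak peaks. At an IDR of 0.001, taken from the ranked lists because the scaled score is capped at 1000, kirre had 20 loci, hbs 1, sns 0 and the 4 genes 21, and rst had 1 shared locus; this reading was added after the data were seen, and the one from the score was not run. With the 4000 peaks of highest signal in each list, kirre had 21 loci, hbs 1, sns 0 and the 4 genes 22. In the gene body alone, rst had 1 locus and 0 shared loci, and sns had 0 loci; these lie in the flanks by construction. With 1 replicate left out, shared loci at hbs and at sns ran from 0 to 1 each, with 1 when replicate 3, which has the shortest list, was the one left out. Of 180 alternative values, 156 stayed within the spread between replicates, or within 1.5 times for a count, and 24 moved. Some of the 156 had little room to move, as the shared loci per 10 kb of rst and sns were 0 in every setting. For shared loci per 10 kb the spread was the SD of all peaks per 10 kb, which is another measure. The tally is therefore no measure of robustness. The median percentile of the shared loci of kirre was 64.4 at an IDR of 0.001, 64.0 in the lists of 4000 peaks and 71.8 without replicate 3; that of the shared loci of rst, 49.0 in the full lists, was 9.80 at an IDR of 0.001 and 24.0 in the lists of 4000 peaks. At an IDR of 0.001 and in the lists of 4000 peaks, the lists are shorter, and percentiles count fewer weak peaks below a locus. The set of loci also changed. Without replicate 3 the shared loci of kirre were 22 in place of 18, and at an IDR of 0.001 rst had 1 in place of 2. Within 50 bp of the centre, 5 of the 18 loci held CANNTG, beside 30.7% of shared loci elsewhere, and none held GAGAG or CACACA, beside 9.44% and 5.77%. There AAAATAT was at 4 loci in place of 7 and TTTAAAA at 2 in place of 4, beside 18.8% and 16.1% elsewhere. No paired analysis was possible because the samples form 1 group, with no second group to pair them to; differences between kirre and its arm were taken within each replicate. Sequencing depth is unknown, and 3 replicates limit the precision of every mean.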

Other observations

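Among the other immunoglobulin-superfamily adhesion genes, Fas3, which encodes the homophilic adhesion protein Fasciclin 3, held 8 shared loci in its body of 73.3 kb, and ed held 7 in 84.4 kb. Their densities, 1.09 and 0.830 shared loci per 10 kb, stand beside 0.457 in kirre. These genes were singled out after their values were seen.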
